A study of Saccharomyces cerevisiae with 12 samples.

Results

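The inositol and phospholipid synthesis genes of budding yeast are described here across 4 media. They are 10 genes, INO1, INO2, INO4, OPI1, OPI3, CHO1, CHO2, ITR1, ITR2 and PSD1, of 7127 yeast rows in the deposited table. They were chosen by gene name and on measured values, their CPM in all 4 media (CPM are a gene's counts divided by the library's total over the yeast genes tested times its TMM factor, on a common scale), so their own values are given as a description, with no test. All 10 passed the filter on low counts.

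RNA came from the haploid laboratory strain BY4742, labelled wild type, grown in synthetic medium. The doubly restricted group had 0.5% glucose with 1 mM potassium chloride, the glucose-restricted group 0.5% glucose with 7 mM, the potassium-restricted group 2% glucose with 1 mM and the unrestricted group 2% glucose with 7 mM, each with 3 biological replicates, for 12 libraries. Lower glucose is called glucose restriction and 1 mM potassium (K) is called potassium restriction. The labels gave every library the same batch and stated neither the growth stage at harvest nor the inositol in the medium.

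Yeast rows held 5634205 to 7036345 counts per library, and 34% to 41.6% of a library's counts lay at rows with WBGene identifiers. Of the markers of the alpha mating type that BY4742 has, all 4 were detected, and their summed level was 923 to 970 CPM at 0.5% glucose 1 mM K, 209 to 232 CPM at 0.5% glucose 7 mM K, 695 to 748 CPM at 2% glucose 1 mM K and 338 to 360 CPM at 2% glucose 7 mM K. Of 6 genes of the a mating type, MFA1 and MFA2 had no count, and the summed level of the list was 60.6 to 69.1, 114 to 147, 74 to 99.2 and 150 to 158 CPM in the 4 groups, in the same order. LEU2, LYS2 and URA3, deleted in BY4742, had no count in any library, which allows up to 3 counts each, and HIS3, of which the strain lacks only a part, had 3.7 to 177 CPM. Ribosomal RNA rows held 2.29% to 2.62%, 1.23% to 1.45%, 0.989% to 2.03% and 0.794% to 1.02% of yeast counts in the 4 groups, in the same order. The part of mating-type genes and ribosomal RNA in the results was not tested. Replicate 2 of 0.5% glucose 7 mM K stood furthest apart. Its correlations of log2 CPM with its partners were 0.882 and 0.891 across genes, against 0.987 between those partners. Fold changes that it moved by over 1.5 times are also given without it. Replicate 3 of 0.5% glucose 1 mM K had correlations of 0.965 and 0.971, against 0.988 between its partners. Replicate 3 of 2% glucose 1 mM K had 0.974 and 0.977, against 0.989 between its partners.

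Yeast makes inositol from glucose 6-phosphate with the enzyme encoded by INO1 or takes it up through the transporters Itr1 and Itr2. Phosphatidylserine, made by Cho1, is decarboxylated by Psd1 to phosphatidylethanolamine, which Cho2 and Opi3 methylate to phosphatidylcholine. Many of these genes carry a promoter element called UAS-INO, which the pair of activators Ino2 and Ino4 binds. The repressor Opi1 acts through Ino2. Phosphatidic acid holds Opi1 at the membrane of the endoplasmic reticulum. When inositol is plentiful, phosphatidic acid is drawn into phosphatidylinositol and Opi1 moves to the nucleus.

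The promoters are shown first, with the matches of the element's core motif in their letters. The core searched was CATGTG on either strand, so CACATG on the gene's own strand counts as a match on the other. The window held 300 bases that begin 400 bases before the start codon, which leaves out the bases nearest the coding sequence, and it can reach into a neighbouring gene. Of 10 members 8 held the core, against 9.27% of 6001 protein-coding windows of the same length, and 6 held at least 2 matches, against 0.733%. The longer form CATGTGA stood in 7 members and in 2.83% of all windows. OPI1 and ITR2 held no match of either form. In INO1 the matches began 243 and 178 bases before the start codon, and in ITR1 392, 282 and 221 bases before it. In INO2 and CHO2 a forward and a reverse match overlapped by 4 bases and were counted as 2. The motif GCCGCC, the core of the URS1 element that the regulator Ume6 binds, stood 2 times in the INO1 window, 1 time in the OPI3 window and in none of the other 8, against 6.12% of all windows. A match is a description of the letters and not a measured binding site. A window without an exact match does not show that the gene lacks the element. Windows are from RefSeq's build R64, written 5′ to 3′ on the gene's strand, with the core in capitals. INO1 and ITR1 are printed for the size of their differences, CHO1 and CHO2 for the enzyme steps and ITR2 as the transporter gene without a match.
INO1 (chrX:136034-136333, minus strand): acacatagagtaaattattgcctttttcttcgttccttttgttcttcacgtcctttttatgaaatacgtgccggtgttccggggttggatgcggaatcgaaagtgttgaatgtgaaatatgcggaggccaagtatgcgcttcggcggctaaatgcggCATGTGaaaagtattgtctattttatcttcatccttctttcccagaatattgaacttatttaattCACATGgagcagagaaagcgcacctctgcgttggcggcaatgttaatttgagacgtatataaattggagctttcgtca
ITR1 (chrIV:1445568-1445867, minus strand): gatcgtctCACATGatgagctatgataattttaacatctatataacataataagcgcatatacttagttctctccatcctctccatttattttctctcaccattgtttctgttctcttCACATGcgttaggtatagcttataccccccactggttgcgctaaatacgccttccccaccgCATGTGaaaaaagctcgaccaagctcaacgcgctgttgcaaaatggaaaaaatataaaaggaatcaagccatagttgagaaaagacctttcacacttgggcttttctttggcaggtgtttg
CHO1 (chrV:208575-208874, minus strand): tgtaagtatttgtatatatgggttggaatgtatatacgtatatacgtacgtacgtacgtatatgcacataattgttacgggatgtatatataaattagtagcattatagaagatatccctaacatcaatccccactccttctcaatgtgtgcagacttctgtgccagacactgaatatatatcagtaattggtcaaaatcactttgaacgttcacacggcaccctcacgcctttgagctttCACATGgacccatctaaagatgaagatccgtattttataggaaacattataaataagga
CHO2 (chrVII:802040-802339, plus strand): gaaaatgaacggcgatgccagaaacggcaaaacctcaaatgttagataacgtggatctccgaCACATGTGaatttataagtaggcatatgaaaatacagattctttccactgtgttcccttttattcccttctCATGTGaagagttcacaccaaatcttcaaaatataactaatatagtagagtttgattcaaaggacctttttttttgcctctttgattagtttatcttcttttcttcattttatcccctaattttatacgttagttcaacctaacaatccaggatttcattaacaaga
ITR2 (chrXV:123601-123900, plus strand): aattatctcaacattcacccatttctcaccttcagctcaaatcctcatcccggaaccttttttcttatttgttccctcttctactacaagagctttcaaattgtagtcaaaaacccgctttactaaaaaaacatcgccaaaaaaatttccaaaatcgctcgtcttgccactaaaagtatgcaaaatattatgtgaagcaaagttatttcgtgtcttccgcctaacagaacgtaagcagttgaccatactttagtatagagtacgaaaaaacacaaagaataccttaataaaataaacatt

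**Figure D1:**
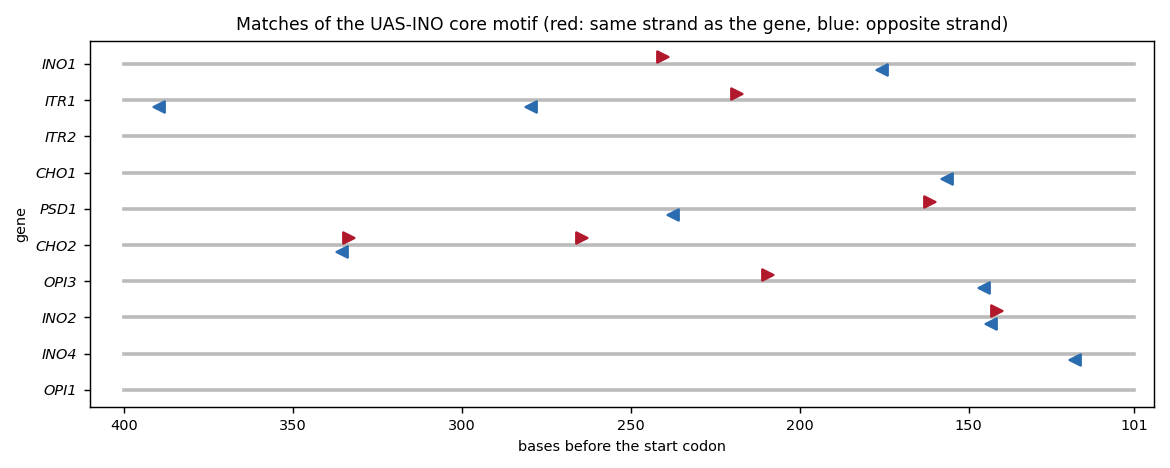
Position of each match of the UAS-INO core in the 300-base window of the 10 members, in bases before the start codon, with arrowheads for the strand of the match. ITR2 and OPI1 have no match, and ITR1 and CHO2 have 3 each.

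INO1, the gene of inositol 3-phosphate synthase (chromosome X, 134332 to 135933, build R64), had the widest range of the members. It measured 304, 342 and 396 CPM in replicates 1 to 3 at 0.5% glucose 1 mM K. At 0.5% glucose 7 mM K it measured 27.5, 123 and 29.5 CPM. At 2% glucose 1 mM K it measured 2389, 2879 and 2382 CPM, against 220, 246 and 213 CPM at 2% glucose 7 mM K. No library of any medium overlapped with those of another, and the means differed 42.4-fold between the highest and the lowest medium, or 89.5-fold without replicate 2 of 0.5% glucose 7 mM K. That library, the one that stood furthest apart, held 4.33 times the mean of its partners. In bulk RNA, fewer cells that hold a transcript and less of it per cell cannot be told apart.

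Potassium restriction went with more INO1 RNA at both glucose levels. Errors here and below, unless marked SD, are standard errors worked out from edgeR's fold change and F statistic, with the spread estimated over all 4 groups. The log2 fold change (1 mM over 7 mM) was 3.49 ± 0.51 at 2% glucose and 2.54 ± 0.49 at 0.5% glucose. Without replicate 2 of 0.5% glucose 7 mM K, these were 3.51 ± 0.17 and 3.62 ± 0.20. The difference between them, the interaction of potassium and glucose, was -0.96 ± 0.66 with that library and 0.11 ± 0.23 without it. Glucose restriction went with less INO1 RNA at both potassium levels, with -1.92 ± 0.48 at 7 mM K, -2.99 ± 0.20 without that library, and -2.88 ± 0.50 at 1 mM K. With both restrictions INO1 stood at 348 ± 46.1 CPM, against 226 ± 17.3 CPM with neither (SD, n = 3 each), a log2 fold change of 0.62 ± 0.47.

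ITR1, the gene of the major inositol transporter (chromosome IV, 1443713 to 1445467), held 785, 831 and 929 CPM at 0.5% glucose 1 mM K. It held 110, 177 and 114 CPM at 0.5% glucose 7 mM K. The values were 1133, 1272 and 1265 CPM at 2% glucose 1 mM K, and 224, 230 and 208 CPM at 2% glucose 7 mM K. As for INO1, the 4 media did not overlap and came in the same order. The log2 fold change for potassium restriction was 2.47 ± 0.22 at 2% glucose and 2.67 ± 0.23 at 0.5% glucose. For glucose restriction it was -0.72 ± 0.21 at 7 mM K and -0.53 ± 0.21 at 1 mM K.

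ITR2 (chromosome XV, 124001 to 125830), the minor transporter gene and the one without the UAS-INO core in its window, ran otherwise. Its levels were 116, 108 and 84.3 CPM at 0.5% glucose 1 mM K and 69, 45.8 and 70.2 CPM at 0.5% glucose 7 mM K. At 2% glucose it held 104, 124 and 114 CPM with 1 mM K, against 196, 181 and 197 CPM with 7 mM K. The medium with neither restriction was thus the highest, while the libraries with 1 mM K overlapped between the glucose levels. Potassium restriction gave -0.75 ± 0.18 at 2% glucose and 0.74 ± 0.18 at 0.5% glucose, with groups that did not overlap in either case. Glucose restriction gave -1.63 ± 0.18 at 7 mM K and -0.15 ± 0.18 at 1 mM K, the last with overlapping libraries.

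Of the counts of the transporter pair, ITR1 took 89.1% ± 2.35 at 0.5% glucose 1 mM K, 67.6% ± 10.2 at 0.5% glucose 7 mM K, 91.5% ± 0.311 at 2% glucose 1 mM K and 53.5% ± 2.27 at 2% glucose 7 mM K (SD, n = 3). Without replicate 2 the share at 0.5% glucose 7 mM K was 61.7%. These shares are set by counts alone, so they do not depend on how libraries were scaled. The coding sequences of ITR1 and ITR2 were 74.1% identical over 1747 aligned bases, and the longest run they shared was 24 bases, against reads of 150 bases. How the counting treated reads that fit both was not given in the sources used here.

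**Figure D2:**
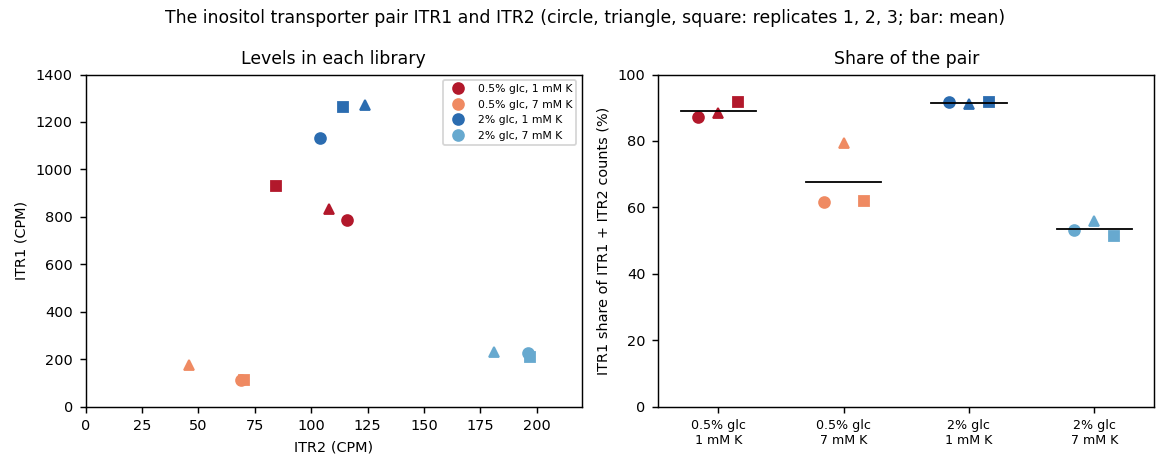
ITR1 against ITR2 in CPM for each library (left, linear axes) and the share of ITR1 in the summed counts of both genes in percent (right), with bars for the means of 3 libraries. The 1 mM K libraries lie between 87.1% and 91.7%, and the 7 mM K libraries between 51.4% and 79.4%.

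CHO1, the gene of phosphatidylserine synthase (chromosome V, 207644 to 208474), measured 207, 237 and 204 CPM at 0.5% glucose 1 mM K, against 80.9, 82.4 and 78.8 CPM at 0.5% glucose 7 mM K. At 2% glucose it measured 229, 260 and 252 CPM with 1 mM K, against 53.1, 57.3 and 55.8 CPM with 7 mM K. The media with 1 mM K overlapped and lay above both media with 7 mM K. Potassium restriction gave a log2 fold change of 2.16 ± 0.12 at 2% glucose and 1.42 ± 0.12 at 0.5% glucose. Glucose restriction gave 0.54 ± 0.12 at 7 mM K and -0.19 ± 0.11 at 1 mM K. Replicate 2 of 0.5% glucose 7 mM K stood at 1.03 times its partners' mean, the ratio nearest to 1 among the members.

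PSD1, the gene of the mitochondrial phosphatidylserine decarboxylase (chromosome XIV, 316169 to 317671), held 92.8, 115 and 95.5 CPM at 0.5% glucose 1 mM K, against 26.1, 28.8 and 22.6 CPM at 0.5% glucose 7 mM K. At 2% glucose it held 92.8, 106 and 135 CPM with 1 mM K, against 27, 21.3 and 27 CPM with 7 mM K. Its libraries split by potassium, with overlap between the glucose levels on either side. The log2 fold change for potassium restriction was 2.15 ± 0.18 at 2% glucose and 1.97 ± 0.18 at 0.5% glucose, and that for glucose restriction was 0.04 ± 0.18 at 7 mM K and -0.14 ± 0.17 at 1 mM K, both of which changed sign without single libraries.

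CHO2, the gene of the enzyme that adds the initial methyl group to phosphatidylethanolamine (chromosome VII, 802440 to 805049), measured 309, 331 and 310 CPM at 0.5% glucose 1 mM K, against 94.7, 71.1 and 98.7 CPM at 0.5% glucose 7 mM K. With 2% glucose the values were 339, 373 and 363 CPM at 1 mM K, against 121, 118 and 123 CPM at 7 mM K. All 4 media were apart from each other, but by little between the glucose levels. Potassium restriction gave 1.57 ± 0.15 at 2% glucose and 1.84 ± 0.15 at 0.5% glucose, and glucose restriction -0.45 ± 0.15 at 7 mM K and -0.18 ± 0.15 at 1 mM K.

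OPI3, the gene of the enzyme of the later methylations (chromosome X, 572315 to 572935), held 576, 651 and 847 CPM at 0.5% glucose 1 mM K, against 445, 328 and 386 CPM at 0.5% glucose 7 mM K. With 2% glucose it held 814, 895 and 811 CPM at 1 mM K, against 300, 292 and 283 CPM at 7 mM K. The highest libraries were those with 1 mM K, which overlapped between the glucose levels. Potassium restriction gave 1.53 ± 0.20 at 2% glucose and 0.84 ± 0.20 at 0.5% glucose. For glucose restriction the values were 0.41 ± 0.20 at 7 mM K and -0.28 ± 0.20 at 1 mM K.

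**Figure D3:**
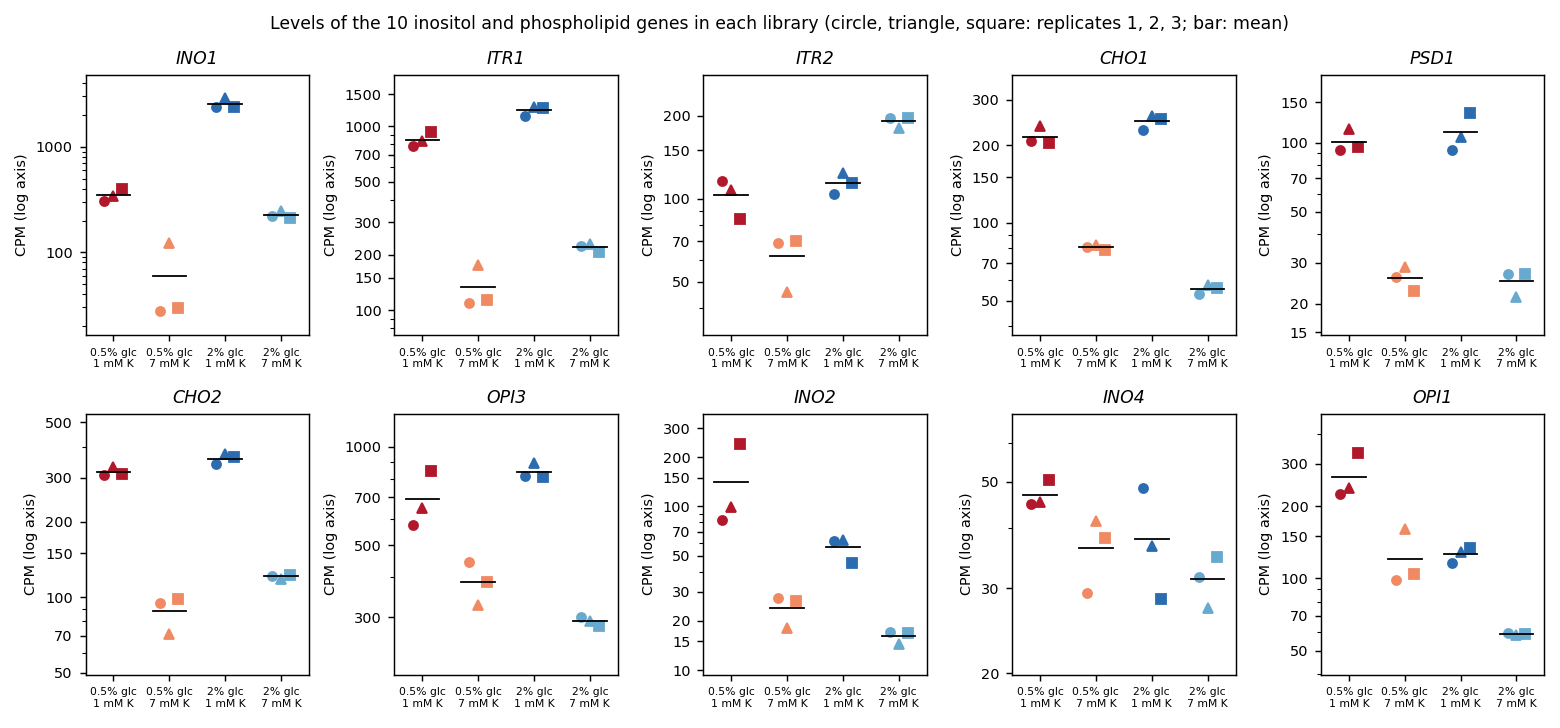
CPM of the 10 members in each of the 12 libraries on log axes, 1 panel per gene, with bars for the means of 3 libraries. INO1, ITR1 and CHO2 share the order of the 4 media. In these genes and in CHO1, PSD1, OPI3 and INO2, every potassium-restricted library lies above every library without potassium restriction. INO2, OPI1 and, with overlapping libraries, INO4 have their highest mean with both restrictions, and ITR2 has it with neither.

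Among the regulators, INO2 (chromosome IV, 698554 to 699468), which brings the activation domain of the Ino2-Ino4 pair, was highest with both restrictions. It measured 82.6, 99.3 and 240 CPM at 0.5% glucose 1 mM K and 27.5, 18.1 and 26.6 CPM at 0.5% glucose 7 mM K. At 2% glucose it measured 61.9, 62.1 and 45.4 CPM with 1 mM K, against 17.1, 14.4 and 16.9 CPM with 7 mM K. The media did not overlap, though replicate 3 of 0.5% glucose 1 mM K was far above its partners. Potassium restriction gave 1.81 ± 0.36 at 2% glucose and 2.54 ± 0.36 at 0.5% glucose, and both restrictions against neither gave 3.12 ± 0.37. Without that replicate 3 the value at 0.5% glucose was 1.90 and that for both restrictions 2.49, and over all libraries left out singly they ran from 1.90 to 2.77 and from 2.49 to 3.36.

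INO4 (chromosome XV, 111431 to 111886), the partner through which Ino2 binds DNA, had the narrowest range, 1.5-fold between the highest and lowest means. Its levels were 44.9, 45.3 and 50.3 CPM at 0.5% glucose 1 mM K, 29.4, 41.5 and 38.2 CPM at 0.5% glucose 7 mM K, 48.6, 36.8 and 28.5 CPM at 2% glucose 1 mM K and 31.6, 27.3 and 34.9 CPM at 2% glucose 7 mM K. With the media ranked by their means, each overlapped with the next. At 0.5% glucose, however, every library with 1 mM K lay above those with 7 mM K. Potassium restriction gave 0.28 ± 0.20 at 2% glucose and 0.37 ± 0.20 at 0.5% glucose, but 0.60 and 0.07 under scaling by WBGene totals. Glucose restriction gave 0.21 ± 0.21 at 7 mM K and 0.30 ± 0.20 at 1 mM K, the last with -0.13 under scaling by WBGene totals.

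OPI1, the repressor gene (chromosome VIII, 66242 to 67456), has no UAS-INO core in the window, and its RNA was lowest in the unrestricted medium. It held 224, 239 and 333 CPM at 0.5% glucose 1 mM K and 98.8, 160 and 104 CPM at 0.5% glucose 7 mM K. The values were 116, 129 and 134 CPM at 2% glucose 1 mM K, against 59.1, 57.9 and 58.7 CPM at 2% glucose 7 mM K. The media with a single restriction overlapped with each other and lay between the doubly restricted and the unrestricted medium. Potassium restriction gave 1.11 ± 0.20 at 2% glucose and 1.13 ± 0.20 at 0.5% glucose, and glucose restriction gave 1.04 ± 0.20 at 7 mM K and 1.07 ± 0.20 at 1 mM K.

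Counted together, 8 of 10 members had all 3 libraries above those of the other group for potassium restriction at 2% glucose, 1 had them below and 1 overlapped. Over all 6127 genes tested, 31.6% were above and 32.6% below by the same rule. At 0.5% glucose all 10 were above, against 27.1% of all genes. For glucose restriction at 7 mM K, 4 were above and 4 below, against 25.3% and 26% of all genes, and at 1 mM K 2 were above and 3 below, against 25.7% and 29%. With both restrictions against neither, 9 were above and 1, ITR2, below, against 35.6% and 34.8%. The members were chosen with these values known, so nothing is read from these counts. Their median log2 fold change was 1.69 and 1.63 for potassium restriction at 2% and 0.5% glucose, 0.13 and -0.16 for glucose restriction at 7 and 1 mM K, and 1.67 for both, while the medians of all genes lay between -0.02 and 0.03. The 3 comparisons with the unrestricted medium share its libraries. Of the mating-type markers, the summed alpha list was higher at 1 mM K than at 7 mM K at both glucose levels and the summed a list was lower at both. Most of the summed a list was STE6, with means at 1 and 7 mM K of 68.7 and 128 CPM at 2% glucose and 46.1 and 103 CPM at 0.5% glucose. At 2% glucose STE2 had 7.88 and 13.9 CPM, BAR1 10.4 and 10.9 CPM and AGA2 0.208 and 0.564 CPM. At 0.5% glucose AGA2, below the filter on low counts, had 0.823 and 0.535 CPM. The alpha list was not uniform at 2% glucose. MF(ALPHA)1 had means of 407 CPM at 1 mM K and 59.4 CPM at 7 mM K, STE3 196 and 77.4 CPM, MF(ALPHA)2 8.52 and 7.82 CPM, and SAG1 116 and 207 CPM. The part of these genes in the counts of members was not tested.

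**Figure D4:**
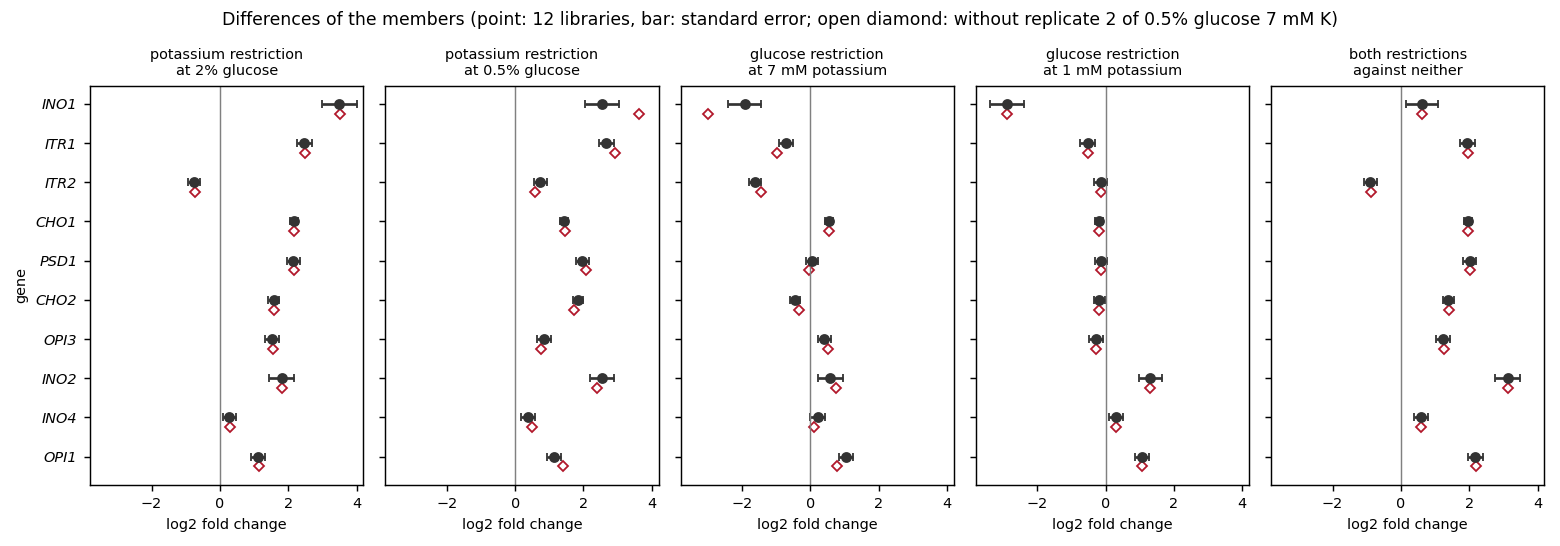
Log2 fold change of each member (points, with bars for the standard error) in the 5 comparisons between media, and the same without replicate 2 of 0.5% glucose 7 mM K (open diamonds). INO1 moves furthest without that library, to 3.62 for potassium restriction at 0.5% glucose and -2.99 for glucose restriction at 7 mM K.

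Scaled per kilobase of coding sequence, which allows levels of different genes to be set side by side, INO1 led the members at 2% glucose 1 mM K with a mean of 1592 CPM per kilobase, ahead of OPI3 with 1353. In the other media OPI3 led, with 1113 at 0.5% glucose 1 mM K, 622 at 0.5% glucose 7 mM K and 470 at 2% glucose 7 mM K. INO1 stood at 217, 37.5 and 141 CPM per kilobase in those 3 media. INO2 was the lowest at 2% glucose 1 mM K, with 61.7, and PSD1 in both media with 7 mM K, with 17.2 at 0.5% glucose and 16.7 at 2% glucose.

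Likeness of profiles was measured as the root mean square difference of log2 CPM, centred for each gene over the 12 libraries. CHO1 and PSD1 were the closest members, at 0.267, followed by CHO2 and PSD1 at 0.326 and OPI3 and CHO1 at 0.355. The tested genes nearest to INO1 were HBN1 (0.791), MNC1 (0.992), GDH1 (1.02), SAM2 (1.02) and CLB1 (1.04), and ITR1 ranked 9 of 6126 at 1.09. HBN1 and MNC1 had low levels, with highest means of 26.2 and 7.57 CPM. GDH1, a glutamate dehydrogenase gene, had means of 219, 47, 748 and 177 CPM, in the order 0.5% glucose 1 mM K, 0.5% glucose 7 mM K, 2% glucose 1 mM K and 2% glucose 7 mM K. SAM2, an S-adenosylmethionine synthetase gene, had 228, 14.8, 399 and 99 CPM. The enzyme it encodes makes the methyl donor that Cho2 and Opi3 use. PSD1 ranked 74, CHO2 80, CHO1 163 and OPI3 319, and the regulators INO2, INO4 and OPI1 ranked 1181, 2236 and 2505.

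The other genes of lipid metabolism were taken as 8 lists with 81 genes, none of them a member, and all 81 were tested. The lists were drawn up with earlier results of these data known. Here and below, their counts, shares and medians are thus a description, also where they hold with libraries left out. Calls came from edgeR's quasi-likelihood test with a threshold of 0.05 on p-values adjusted by Benjamini and Hochberg's method over all 6127 genes, and "rose" and "fell" are used for called genes. For potassium restriction at 2% glucose 19 of them rose (23.5%) and 9 fell (11.1%), against 13.1% and 15% of all genes (28.1% either way), and their median log2 fold change was 0.01. With single libraries left out 15 to 27 rose and 3 to 15 fell, the most in both directions without 0.5% glucose 7 mM K replicate 2. The called genes that rose made up 67.9%, and 85.7%, 82.1% and 92.3% under upper-quartile scaling, library totals and scaling by WBGene totals. In the choline and ethanolamine branch, which makes phosphatidylcholine and phosphatidylethanolamine from free bases, 5 of 7 rose and 0 fell, with a median of 1.30, and these counts were the same with any library left out. EPT1, the ethanolamine phosphotransferase gene, rose by 2.55 ± 0.31 (edgeR adjusted p = 0.000137). It measured 37.8, 42.7 and 52.8 CPM at 1 mM K, against 7.98, 9.21 and 5.47 CPM at 7 mM K.

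In the fatty acid synthesis list 7 of 11 rose and 0 fell for potassium restriction at 2% glucose, with a median of 1.53 (7 to 9 rose with single libraries left out). The elongase gene ELO2 rose by 2.95 ± 0.34 (edgeR adjusted p = 8.54e-05), to 74.1 ± 17.6 CPM at 1 mM K against 9.58 ± 3.02 CPM at 7 mM K (SD, n = 3 each). CDS1, the gene of the synthase of CDP-diacylglycerol, from which phosphatidylserine and phosphatidylinositol are made, rose by 2.74 ± 0.21 (edgeR adjusted p = 5.23e-06). It held 104, 114 and 166 CPM at 1 mM K, against 21.7, 18.4 and 17.2 CPM at 7 mM K. PIS1, the phosphatidylinositol synthase gene, was not called there (-0.68 ± 0.26, edgeR adjusted p = 0.0703), with 50.9, 56.9 and 45.2 CPM against 83.1, 80.5 and 80.9 CPM. In its list, other phospholipid synthesis, 2 genes rose and 0 fell. From 1 to 4 rose with single libraries left out, and 1 to 4 under the other settings. The count that rose was 1 with the replicate block or without any single library of 2% glucose. With DESeq2, limma voom, only the groups compared or 0.5% glucose 7 mM K replicate 2 left out, 1 fell.

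Of 11 genes for inositol recovery and lipid breakdown, 2 rose and 3 fell for potassium restriction at 2% glucose, and 1 to 2 rose and 2 to 5 fell with single libraries left out. GIT1, which takes up glycerophosphoinositol, rose by 4.31 ± 0.30 (edgeR adjusted p = 2.88e-06), with 203, 244 and 359 CPM at 1 mM K, against 12.4, 14.8 and 13.3 CPM at 7 mM K. INM1, an inositol monophosphatase gene whose product frees inositol from the Ino1 product, fell by 2.25 on the log2 scale (SE 0.28, edgeR adjusted p = 0.000137), with 30.9, 37.7 and 42.6 CPM against 203, 148 and 179 CPM. GDE1, a glycerophosphocholine phosphodiesterase gene, fell by 0.86 (SE 0.15, edgeR adjusted p = 0.0012), a call lost under scaling by WBGene totals. Of 13 phosphoinositide and inositol phosphate genes 0 rose and 4 fell (1 to 4 with single libraries left out), among them the inositol polyphosphate kinase gene ARG82 by 1.37 (SE 0.36, edgeR adjusted p = 0.0149), a call lost without 2% glucose 1 mM K replicate 2 or 3 or 2% glucose 7 mM K replicate 1 (log2 fold changes of -1.46 to -1.31 over all libraries left out). Among 15 genes for phosphatidic acid and storage lipids 1 rose and 2 fell, against 5 and 5 without 0.5% glucose 7 mM K replicate 2 and 1 and 0 without any of 3 other libraries (2% glucose 1 mM K replicate 1 and 2% glucose 7 mM K replicates 1 and 3). The sterol acyltransferase gene ARE2 fell by 0.97 (SE 0.32, edgeR adjusted p = 0.0411). This call was lost under upper-quartile scaling, scaling by WBGene totals, the stricter filter and the replicate block and when any library of 2% glucose or of 0.5% glucose 1 mM K was left out, with log2 fold changes of -1.07 to -0.85 over the libraries left out. Of 7 inositol sphingolipid genes 1 rose (0 when any of 7 libraries was left out), and of 10 other regulators of INO1 the gene SCS2, whose product anchors Opi1 at the membrane, rose by 0.53 ± 0.16 (edgeR adjusted p = 0.0296). Without 2% glucose 1 mM K replicate 1 or 3 or any library of 2% glucose 7 mM K, 0 of these 10 were called.

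For potassium restriction at 0.5% glucose 27 of the 81 genes rose (33.3%) and 21 fell (25.9%), against 23.5% and 24.9% of all genes (48.4% either way), with a median of -0.01. The called genes that rose made up 56.2%, and 38.3% under scaling by WBGene totals. The choline and ethanolamine branch had 5 of 7 up and 1 down with a median of 0.86, and EPT1 rose by 2.84 ± 0.31 (edgeR adjusted p = 3.58e-05). Of the fatty acid synthesis list 6 of 11 rose and 3 fell (5 and 1 without 0.5% glucose 1 mM K replicate 2), with ELO2 up by 3.23 ± 0.33 and the elongase gene ELO3 up by 2.78 ± 0.16 (edgeR adjusted p = 2.31e-05 and 6.44e-07). PIS1 rose by 2.61 ± 0.27 (edgeR adjusted p = 2.59e-05), with 124, 168 and 135 CPM at 1 mM K, against 28.8, 11.9 and 29 CPM at 7 mM K. Among inositol sphingolipid genes 5 of 7 rose and 0 fell. The phosphoinositide and inositol phosphate list had 6 of 13 down and 1 up (0 up without 0.5% glucose 1 mM K replicate 1 or 2), with ARG82 down by 1.86 (SE 0.37) and the inositol phosphate kinase gene IPK1 by 1.28 (SE 0.19; edgeR adjusted p = 0.00171 and 0.000257). Without replicate 2 of 0.5% glucose 7 mM K the ARG82 value was -1.10. GPT2, a glycerol 3-phosphate acyltransferase gene, fell by 1.91 (SE 0.55, edgeR adjusted p = 0.014) and FAA4, an acyl-CoA synthetase gene, by 1.37 (SE 0.41, edgeR adjusted p = 0.0164), but without that library they measured -0.52 and -0.50 (edgeR adjusted p = 0.00514 and 0.0188). Both calls were lost without 0.5% glucose 1 mM K replicate 2 and with only the groups compared.

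**Figure D5:**
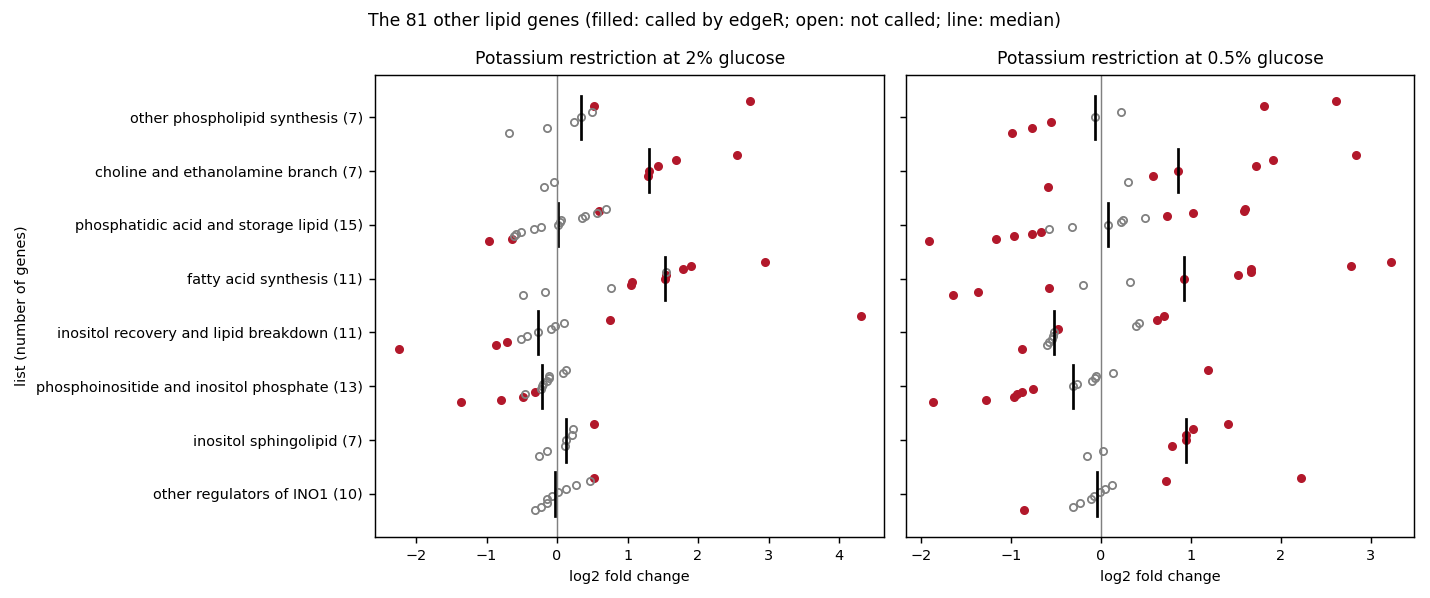
Log2 fold change of the 81 other lipid genes by list for potassium restriction at 2% and 0.5% glucose, with filled points for genes called by edgeR, open points for the rest and a line at the median of each list. The medians of the choline and ethanolamine branch are 1.30 and 0.86, and those of fatty acid synthesis 1.53 and 0.93.

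For glucose restriction at 7 mM K 11 of the 81 genes rose (13.6%) and 16 fell (19.8%), against 16.9% and 17% of all genes (33.9% either way). Risen genes made up 40.7% of those called, and 59.4%, 56% and 59.1% under upper-quartile scaling, library totals and scaling by WBGene totals. INM1 fell by 3.84 (SE 0.30, edgeR adjusted p = 4.11e-06), to 12.2 ± 4.58 CPM at 0.5% glucose against 177 ± 27.3 CPM at 2% glucose (SD, n = 3 each). PIS1 fell by 1.80 (SE 0.27, edgeR adjusted p = 0.000369), HAC1, a regulator of the unfolded protein response, by 1.84 (SE 0.22, edgeR adjusted p = 6.92e-05) and SAC1, a phosphoinositide phosphatase gene, by 1.74 (SE 0.38, edgeR adjusted p = 0.00451). The ethanolamine kinase gene EKI1 rose by 1.21 ± 0.22 (edgeR adjusted p = 0.00139), DPP1, a lipid phosphatase gene, by 1.08 ± 0.23 (edgeR adjusted p = 0.00337) and PLC1, the phospholipase C gene, by 1.25 ± 0.23 (edgeR adjusted p = 0.00137). FAA4 rose by 2.44 ± 0.43 (edgeR adjusted p = 0.00108). When replicate 2 of 0.5% glucose 7 mM K was left out, its value was 1.58.

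For glucose restriction at 1 mM K 15 rose (18.5%) and 21 fell (25.9%), against 16.3% and 18.4% of all genes (34.8% either way). Risen genes made up 41.7% of those called, and 23.5% and 19.5% under library totals and scaling by WBGene totals. GIT1 fell by 4.33 (SE 0.30, edgeR adjusted p = 7.17e-06), to 17, 13.4 and 9.41 CPM at 0.5% glucose, against 203, 244 and 359 CPM at 2% glucose. Fatty acid genes moved both ways, 4 up and 4 down of 11 (2 up without replicate 1 or 2 of either 1 mM K group), with the acyl-CoA synthetase gene FAA1 up by 3.11 ± 0.62 and the desaturase gene OLE1 down by 2.06 (SE 0.56; edgeR adjusted p = 0.0027 and 0.0143). EKI1 rose by 1.64 ± 0.21, the inositol phosphorylceramide synthase gene AUR1 by 1.63 ± 0.18 and the sterol acyltransferase gene ARE1 by 1.49 ± 0.25 (edgeR adjusted p = 0.000231, 7.63e-05 and 0.00103). The phosphoinositide phosphatase gene INP51 fell by 1.18 (SE 0.16) and INM1 by 1.16 (SE 0.28; edgeR adjusted p = 0.000284 and 0.00767).

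With both restrictions against neither, 26 of the 81 genes rose (32.1%) and 19 fell (23.5%), against 22.8% and 24.5% of all genes (47.4% either way). The fatty acid synthesis list had 9 of 11 up and 1 down (2 down without 0.5% glucose 7 mM K replicate 2), with ELO2 up by 3.87 ± 0.35 and ELO3 by 2.66 ± 0.16 (edgeR adjusted p = 6.69e-06 and 4.2e-07). In the choline and ethanolamine branch 4 of 7 rose and 1 fell, led by EPT1 with 3.01 ± 0.32 and EKI1 with 2.94 ± 0.23 (edgeR adjusted p = 2.14e-05 and 2.26e-06). Of phosphoinositide and inositol phosphate genes 8 of 13 fell and 0 rose, among them ARG82 by 1.79 (SE 0.37) and INP51 by 1.40 (SE 0.16; edgeR adjusted p = 0.00209 and 3.86e-05). INM1 fell by 3.41 (SE 0.30) and GDE1 by 1.56 (SE 0.15; edgeR adjusted p = 5.22e-06 and 1.04e-05).

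The UAS-INO core also stood in the windows of 12 of the 81 other lipid genes. For potassium restriction at 2% glucose 9 of these 12 rose and 0 fell, with a median of 1.36, while of the 69 without it 10 rose and 9 fell, with a median of -0.07. At 0.5% glucose 8 of the 12 rose and 2, PSD2 and PGS1, fell, with a median of 1.20, against 19 and 19 of the 69. For glucose restriction 4 of the 12 rose and 0 fell at 7 mM K, and 3 rose and 5 fell at 1 mM K, while of the 69 7 rose and 16 fell at 7 mM K, and 12 rose and 16 fell at 1 mM K. With both restrictions 8 of the 12 rose and 1 fell, against 18 and 18 of the 69. Leaving out 0.5% glucose 7 mM K replicate 2 moved the counts of the 69 to 17 and 15 for potassium restriction at 2% glucose. These counts were 14 and 2 under scaling by WBGene totals and 14 and 4 under upper-quartile scaling. They were 7 and 3 without 2% glucose 7 mM K replicate 1. Of the 12, 8 to 10 rose over all libraries left out singly and all other settings. With only the groups compared 1 of them fell, and otherwise 0 did. The windows of CDS1, CKI1, EKI1, CPT1, HNM1, ACC1, FAS2, ELO2, FAA1 and PLB2 held 1 match and those of PSD2 and PGS1 held 2. FAA1 measured -0.49 and PLB2 -0.09 for potassium restriction at 2% glucose. The lists were drawn up with results of these data known, so these counts are a description. Over the whole genome, of 477 tested genes with 1 match 15.1% rose and 15.5% fell for potassium restriction at 2% glucose. Of 33 with at least 2 matches that are not members, 4 (12.1%) rose and 6 (18.2%) fell, against 13.1% and 15.6% of 5144 genes with none. For potassium restriction at 0.5% glucose, 27.7% of genes with 1 match rose and 21% fell. The shares were 18.2% and 33.3% of the 33, and 22.6% and 26.2% of genes with none.

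Interaction tests asked whether potassium restriction acted differently at 0.5% than at 2% glucose. Of the 81 genes 13 had a called positive difference (16%) and 19 a negative one (23.5%), against 14.8% and 15.2% of all genes (29.9% either way). Without 0.5% glucose 7 mM K replicate 2 these were 21 and 24. Positive ones made up 40.6% of those called, and 26.5%, 26.5% and 12.1% under upper-quartile scaling, library totals and scaling by WBGene totals. PIS1 had the highest, 3.28 ± 0.37, and GIT1 the lowest of the 81, -4.84 ± 0.41 (edgeR adjusted p = 0.00013 and 1.88e-05). For the members the interaction is given with no test. It was 1.48 ± 0.25 for ITR2, 0.73 ± 0.49 for INO2, 0.28 ± 0.21 for CHO2, 0.19 ± 0.30 for ITR1, 0.09 ± 0.29 for INO4, 0.02 ± 0.28 for OPI1, -0.17 ± 0.25 for PSD1, -0.69 ± 0.28 for OPI3, -0.74 ± 0.16 for CHO1 and -0.96 ± 0.66 for INO1. The signs of INO4, OPI1, CHO2 and ITR1 turned under scaling by WBGene totals, to -0.53, -0.56, -0.37 and -0.37, and that of INO1 without replicate 2 of 0.5% glucose 7 mM K. INO2 measured 0.09 without 0.5% glucose 1 mM K replicate 3.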

How the data were processed

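Reads were paired-end, 150 bases long, and were aligned with STAR 2.7.1a to build R64, per the labels' protocols; RSEM 1.3.3 is named in the submitters' processing notes. The authors deposited expected counts as whole numbers (0 values were not whole), in 1 table of 46904 rows. Of 7127 rows with SGD identifiers 6444 (90.4%) matched RefSeq's R64 annotation by SGD identifier, which gave names and positions, and 683 were unnamed. Strand use was not given in the sources used here. No annotated gene overlapped a member.

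WBGene rows stayed out of library sizes and tests. The default filter of edgeR 4.0.16 kept 6127 genes, TMM factors ran from 0.802 to 1.19, and all 12 libraries entered 1 robust quasi-likelihood fit of the 4 group means (8 residual degrees of freedom). The procedure was tested on simulated counts with a shared mean per gene and differences planted only at 2% glucose 1 mM K. No library was made to stand apart there, so the simulation does not cover that feature of these data. The prior count for log2 CPM was 2. Members and lists were chosen with earlier results of these data known. The named genes were all members, up to 4 called genes with the highest and 4 with the lowest log2 fold change per comparison in the 8 lists (mean of at least 10 CPM, groups not overlapping, except for the interaction), and the 5 genes nearest to INO1. Genes given as further examples of the UAS-INO core, and SCS2, were chosen after their values were seen. Alternatives were DESeq2 1.42.0, limma 3.58.1 voom, other scalings and filters, a replicate block, fits of just the groups compared and the omission of each library in turn. Work was done in R 4.3.3 and Python 3.11.15. The labels call the replicates independent.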

Additional observations from a re-analysis of the deposited data

Results flagged for a closer look

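Among the other lipid genes, those named for the interaction stood out because the effect of potassium restriction differed between 0.5% and 2% glucose by edgeR's interaction test. The difference of log2 fold changes was positive for PIS1 (3.28), INM1 (2.68), HAC1 (2.29) and ARE1 (1.63), with edgeR adjusted p = 0.00013, 0.000581, 0.000271 and 0.00478. It was negative for GIT1 (-4.84), OLE1 (-3.18), FAA4 (-2.13) and ACC1 (-1.75), with edgeR adjusted p = 1.88e-05, 0.00982, 0.0165 and 0.000731. For FAA4 it was -1.28 without replicate 2 of 0.5% glucose 7 mM K, and for OLE1 -2.55 without replicate 1 of that group. OLE1 measured 368, 388 and 447 CPM at 0.5% glucose 1 mM K, 2166, 242 and 1336 CPM at 0.5% glucose 7 mM K, 1864, 1919 and 1226 CPM at 2% glucose 1 mM K and 566, 610 and 540 CPM at 2% glucose 7 mM K.

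ITR2 stood out because its libraries with 1 mM K lay above those with 7 mM K at 0.5% glucose and below them at 2% glucose. The difference between these effects, 1.48 on the log2 scale, was not tested.

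Rows with WBGene identifiers, which take no part in the comparisons, held up to 41.6% of all counts of a library.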

How the results depend on the processing

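Of 1250 member values recomputed under 21 settings, 1196 moved by less than 1 combined SD, 54 moved further and 28 had another sign. The combined SD is the square root of the summed replicate variances of log2 CPM over the groups compared. It takes in replicate 2 of 0.5% glucose 7 mM K where that group is compared. The INO1 interaction, -0.96 and 0.11 without that library, was thus not counted as moved. In the comparisons between media, other signs were met for INO4 for glucose restriction at 1 mM K under scaling by WBGene totals (-0.13 against 0.30) and for PSD1 for glucose restriction, where its value was near 0. Under scaling by WBGene totals the genome-wide median was 0.30 and -0.34 for potassium restriction at 2% and 0.5% glucose, 0.23 and -0.45 for glucose restriction at 7 and 1 mM K, and -0.63 for the interaction, so members' values are relative to the TMM scale. ITR2 at 2% glucose was then -0.44 for potassium restriction.

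For potassium restriction at 2% glucose, 28 other lipid genes were called, 46 with only the groups compared and 18 to 42 with single libraries left out, the fewest without 2% glucose 7 mM K replicate 1. All genes called numbered 1719 there, 3390 with only the groups compared and 1075 to 3111 with single libraries left out: 1087 and 1075 without 2% glucose 7 mM K replicate 1 or 3, and 3111 without 0.5% glucose 7 mM K replicate 2. For potassium restriction at 0.5% glucose they numbered 2966, and 1805 with only the groups compared. For the interaction they numbered 1835, and 1362 to 2927 with single libraries left out, the most without 0.5% glucose 7 mM K replicate 2. The cause of these moves was not tested. Called lipid genes of both directions together stayed within 1.5 times in the other comparisons, but counts by direction did not. For potassium restriction at 2% glucose 19 rose and 9 fell, and 24 and 2 under scaling by WBGene totals. At 0.5% glucose 27 and 21 became 22 and 12 with only the groups compared. For glucose restriction at 7 mM K 11 and 16 became 19 and 13 under upper-quartile scaling and 13 and 9 under scaling by WBGene totals, and at 1 mM K 15 and 21 became 8 and 33 under the last and 8 and 26 under library totals. For the interaction 13 and 19 became 4 and 29 under scaling by WBGene totals.

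Of 18 pairs of libraries with the same replicate number, 3 had deviations from their group means that correlated above 0.1 (range -0.366 to 0.328), so the numbers were not taken to pair libraries. With a replicate block 21 lipid genes were called for potassium restriction at 2% glucose, 46 at 0.5% glucose, 24 and 32 for glucose restriction at 7 and 1 mM K, 43 for both and 27 for the interaction, against 28, 48, 27, 36, 45 and 32 without it. Depth limits the low-count genes HBN1 and MNC1 most. The limit of 3 counts covers counting error only.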
